A study of Rattus norvegicus with 28 samples.

Results

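The 10 genes described here encode the NF-kB transcription factor subunits Nfkb1, Nfkb2, Rel, Rela and Relb and the IkB proteins Nfkbia, Nfkbib, Nfkbie, Nfkbiz and Bcl3. They were taken by exact symbol from the count tables of 28 mRNA libraries, and 10 of 10 were listed in each library, among 28459 symbols found in any table and 15009 found in every table. The cells were primary glia of Wistar rats, prepared from cortex at postnatal day 1 and kept in flasks for 10 days. Microglia were shaken off and sorted with magnetic beads against CD11b/c, while the isolation of the astrocytes is not described in the labels. Microglia were stimulated 1 day after isolation and astrocytes 3 days after it, in medium with 10% FCS. The treated groups received recombinant HERV-W ENV (ENV), an envelope protein encoded by a human endogenous retrovirus, at 1 µg/ml, against its buffer, or bacterial lipopolysaccharide (LPS), the classical ligand of the receptor TLR4, at 100 ng/ml, against water (H2O). Each of the 4 microglial groups had 3 libraries and each of the 4 astrocyte groups had 4, made by mRNA capture from 150 ng of total RNA. How long the stimulation lasted, and whether replicates were separate litters or cultures, is not stated in the sources at hand, so that p-values reflect only how far these libraries vary, and that variation may be technical.

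NF-kB proteins act as dimers that are held in the cytoplasm of resting cells by classical IkB proteins. Signals from TLR4 and other innate receptors activate the IkB kinase (IKK) complex, the phosphorylated IkB is ubiquitinated and degraded, and the freed dimers enter the nucleus. Several subunits and IkB proteins are themselves encoded by NF-kB target genes, which makes the pathway a set of feedback loops, and in microglia and astrocytes it is known as the main route to cytokine and chemokine transcription. Rela, Rel and Relb carry a transactivation domain, Nfkb1 and Nfkb2 encode the precursors p105 and p100 of the DNA-binding subunits p50 and p52, Nfkbia, Nfkbib and Nfkbie encode the classical inhibitors IkB-alpha, IkB-beta and IkB-epsilon, and Nfkbiz and Bcl3 encode IkB-zeta and Bcl-3, which act in the nucleus on p50 or p52.

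The stretches before the start sites of 6 members are shown because 5 of them hold a match to the kappaB consensus decamer close to the start, and that of Rela, which holds none, stands beside them for comparison. The promoter of Nfkbib also holds none, and Rel, with matches, was called in none of the 4 comparisons of a stimulus with its vehicle. The promoters were taken from RefSeq, build GRCr8, where 9 of the 10 members had an entry of 300 bases, 250 before and 50 after the start. Each stretch below runs 5′ to 3′ on the strand of its gene from 100 bases before to 20 bases after the start. Capitals mark the decamer.
Nfkb1: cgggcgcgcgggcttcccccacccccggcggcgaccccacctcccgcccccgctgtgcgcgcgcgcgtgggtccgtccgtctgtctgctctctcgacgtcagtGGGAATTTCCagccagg
Nfkb2: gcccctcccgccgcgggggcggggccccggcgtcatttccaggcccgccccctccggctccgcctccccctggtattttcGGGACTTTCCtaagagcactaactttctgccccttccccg
Rela: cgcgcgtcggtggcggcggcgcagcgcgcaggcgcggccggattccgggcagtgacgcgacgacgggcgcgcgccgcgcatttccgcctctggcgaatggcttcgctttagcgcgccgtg
Nfkbia: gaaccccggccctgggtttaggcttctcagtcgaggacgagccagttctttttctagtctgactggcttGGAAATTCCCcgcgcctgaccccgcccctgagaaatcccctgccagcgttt
Nfkbiz: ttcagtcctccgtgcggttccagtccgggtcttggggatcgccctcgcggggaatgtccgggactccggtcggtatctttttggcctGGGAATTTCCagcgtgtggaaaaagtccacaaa
Bcl3: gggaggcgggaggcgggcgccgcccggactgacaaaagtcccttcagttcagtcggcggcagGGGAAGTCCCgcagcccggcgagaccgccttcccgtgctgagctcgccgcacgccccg

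The stretches lie at chr2:226805443-226805562 on the minus strand (Nfkb1), chr1:255108274-255108393 on the plus strand (Nfkb2), chr1:212354236-212354355 on the plus strand (Rela), chr6:78597053-78597172 on the minus strand (Nfkbia), chr11:58251621-58251740 on the plus strand (Nfkbiz) and chr1:88613536-88613655 on the minus strand (Bcl3). Searched on both strands over the 300 bases, the kappaB consensus decamer was present in 7 of 9 member promoters, those of Nfkb1, Nfkb2, Rel, Nfkbia, Nfkbie, Nfkbiz and Bcl3, and in 2515 of all 33469 promoters in the table (7.51%). The narrower form GGGANTTTCC, whose matches are contained in the consensus, was present in 4 of 9, those of Nfkb1, Nfkb2, Nfkbia and Nfkbiz, and in 121 promoters overall (0.362%). Nfkb1, Nfkbia and Nfkbiz shared the decamer GGGAATTTCC, which 25 promoters of the table held (0.0747%). It lay on the strand opposite to the gene in Nfkbia. Read along the strand of the gene, its first base was at position -31 there, at -13 in Nfkbiz and at 4 in Nfkb1, counted from the start. Nfkb2 had GGGACTTTCC at -20, a decamer of 37 promoters (0.111%), and Bcl3 had GGGAAGTCCC at -38. In Rel the matches lay farther away, at -82 and -219 on the plus strand of the gene, and in Nfkbie at -164. The windows of Rela and Nfkbib held no match.

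Depth was 26513999 to 42724111 counts per microglial library and 23742228 to 35326938 counts per astrocyte library. Summed markers of microglia and macrophages (15 genes, none at 0 in any group) lay between 8518 and 15660.4 CPM (counts per 1000000 counts of a library) in microglia and between 87.9 and 923 CPM in the astrocyte cultures. The astrocyte list (11 genes) summed to 3523 to 15247 CPM in astrocyte cultures. In microglia it summed to 26.4 to 282 CPM apart from the glutamine synthetase gene Glul, which alone reached 1082 to 5666 CPM there. Fibroblast and mural markers (9 genes) summed to 1634 to 11549 CPM in astrocyte cultures and to 2.15 to 14 CPM in microglia, and neuronal markers (5 genes) to at most 155 CPM in any library. Oligodendrocyte lineage markers summed to 91.3 to 176 CPM in ENV microglia and 291 to 301 CPM in buffer microglia, and to 5.82 to 39 CPM in LPS microglia and 15.4 to 156 CPM in H2O microglia. Endothelial markers summed to at most 7.2 CPM in astrocyte cultures, and granulocyte markers to at most 9.27 CPM and lymphocyte markers to at most 0.189 CPM in any library. Replicate 3 of the microglial LPS and H2O groups stood apart from replicates 1 and 2. Over all genes it varied from them 381.1 and 281.1 times more than counting error with LPS, against 136.0 between replicates 1 and 2. With H2O these values were 138.6 and 164.4, against 74.3. The deviations of the replicate 3 pair from their group means correlated with each other (0.51) and at best at -0.38 with the other numbers. Deviations within a group cancel out, so these correlations are linked. Each microglial LPS result is followed by its value from replicates 1 and 2 alone where that differed in its call. Microglial buffer replicate 3 also stood apart, at 135.0 and 137.6, against 17.4 between buffer replicates 1 and 2. ENV microglia were not fitted with replicates 1 and 2 alone.

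Most of the 10 genes were higher after either stimulus, and the fitted log2 changes lay higher in astrocytes than in microglia for all members but Bcl3. ENV raised 9 members in astrocytes and 6 in microglia, LPS raised 6 members in microglia and 5 in astrocytes, and no member was called lower in any of these comparisons. Called means an adjusted p under 0.05 over all genes tested. The background was 30.9% of 12844 genes called in ENV microglia (16.2% higher), 29.8% of 12229 in LPS microglia (16.0% higher), 17.9% of 14941 in ENV astrocytes (9.52% higher) and 5.34% of 14710 in LPS astrocytes (2.64% higher). With the replicate number as a block, which pairs the libraries in each treated comparison, LPS raised 9 members in astrocytes, with 17.7% of genes called (7.89% higher), and 9 were also called with DESeq2 (13.9% of genes) and in a joint fit of the 4 astrocyte groups (11.2%). Replicates 1 and 2 alone called 6 members in LPS microglia (34.9% of genes), among them Rel as lower and without Nfkbiz. The median log2 change of the 10 members was 0.52 with ENV and 1.03 with LPS in microglia, and 1.83 with ENV and 1.80 with LPS in astrocytes, beside medians of all genes of -0.03, -0.02, 0.02 and 0.03 in the same order. In bulk RNA, fewer cells of a type and less RNA per cell cannot be told apart. Endothelial markers (3 of 4 genes listed for microglia) moved with the members in microglia. They summed to 159, 84.8 and 184 CPM with ENV, against 25.7, 26 and 47.3 CPM with buffer, and to 167, 218 and 88.1 CPM with LPS, against 31.3, 66.4 and 39.8 CPM with H2O. Neither pair of groups overlapped, and 2 of 2 tested were called higher with ENV and 1 of 2 with LPS, while Kdr was at 0 in all LPS and H2O libraries. Of the oligodendrocyte lineage list 3 of 8 tested were called lower with ENV and 1 of 7 with LPS, and the part of these markers in the members' changes was not tested.

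**Figure D1:**
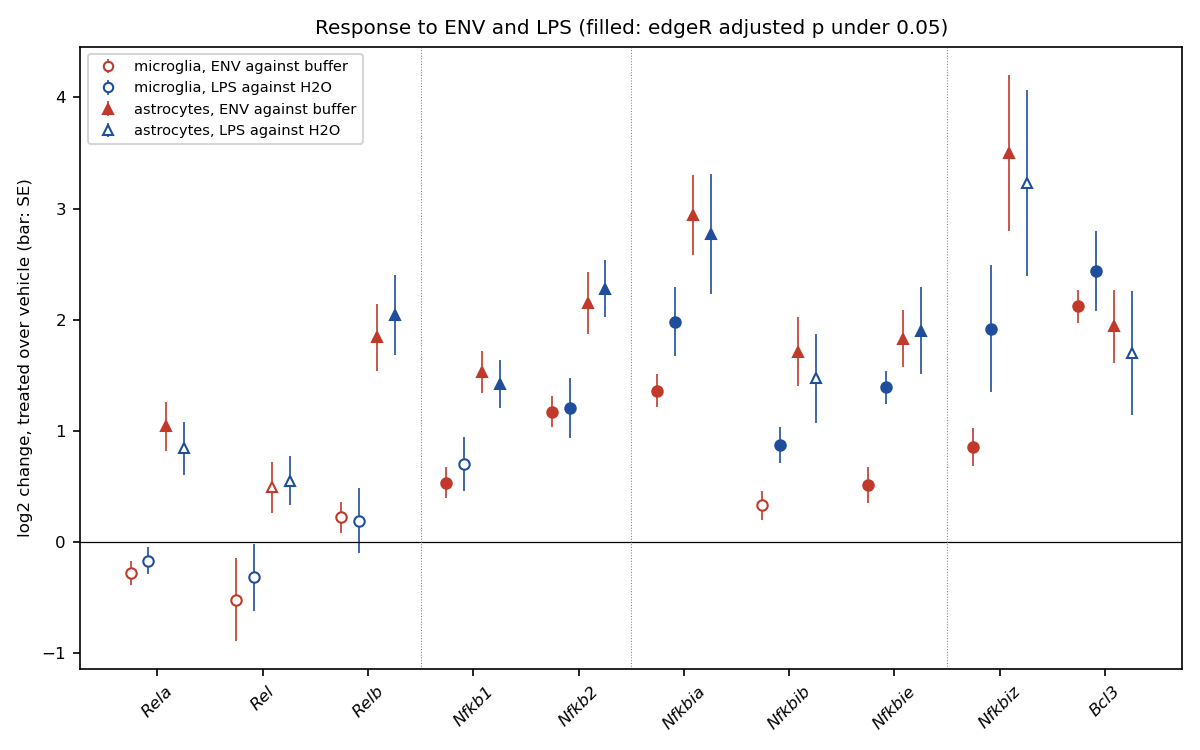
Log2 change of each member (points) with its standard error (bars) in the 4 comparisons of a stimulus with its vehicle (edgeR, n = 3 per microglial and 4 per astrocyte group, filled points with an adjusted p under 0.05). Nfkbiz in ENV astrocytes had the highest value (3.50), while Rel and Rela lay below 0 in both microglial comparisons.

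These counts depended on single libraries in microglia and in LPS astrocytes, and not in ENV astrocytes, where leaving out each of the 8 libraries in turn left 9 members called. In ENV microglia the count of members called in either direction ran from 4 to 8, with 4 without any 1 of ENV replicates 1, 2 or 3 or buffer replicate 2. The 8 came without buffer replicate 3 and held Rel as lower. In LPS microglia it ran from 3, without H2O replicate 1, to 6, without LPS replicate 3, where Rel was among the 6 and lower. In LPS astrocytes it ran from 1, without H2O replicate 3, to 6, without LPS replicate 2. Scaling by library totals in place of TMM factors moved the median of all genes to -0.23 in ENV microglia and -0.33 in LPS microglia. With TMM these medians were -0.03 and -0.02. The share of called genes that were higher was then 31.5% in ENV microglia, against 52.5% with TMM, and 25.9% in LPS microglia, against 53.7%. The changes below are relative to the TMM scale, and members whose call turned on it are named.

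Of the subunits with a transactivation domain, Rela and Relb were called in astrocytes and none in microglia, with all libraries on the TMM scale. Rela, which encodes p65, the main activating subunit of the canonical pathway, had 152, 116, 222 and 239 CPM in ENV astrocytes, against 84.1, 89.5, 85.1 and 96.9 CPM in buffer astrocytes. In LPS astrocytes it had 113, 116, 207 and 221 CPM, against 89.5, 84.9, 98.1 and 95.3 CPM in H2O astrocytes. Every treated astrocyte library lay above every vehicle library, and replicates 3 and 4 of either treatment lay above replicates 1 and 2. With ENV the rise passed the test (log2 change 1.04 ± 0.22, SE, adjusted p = 0.0141). With LPS it did not (0.84 ± 0.24, adjusted p = 0.0865), whereas with the replicate block it did (0.77, adjusted p = 0.0346). Within replicates 1 and 2 alone the LPS change was 0.39, and within replicates 3 and 4 alone it was 1.13.

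In microglia Rela was nominally lower. It had 69.7, 65.4 and 62.8 CPM in ENV microglia, against 86.4, 73 and 81.5 CPM in buffer microglia, and the groups did not overlap. In LPS microglia it had 78.7, 68.6 and 74.6 CPM, against 83.5, 90.2 and 76.4 CPM in H2O microglia, with overlap between LPS replicate 1 and H2O replicate 3. Rela was lower in 3 of 3 pairs under both treatments, with a log2 change of -0.28 ± 0.11 with ENV (adjusted p = 0.0924) and -0.17 ± 0.12 with LPS (adjusted p = 0.311). Scaled by library totals, both were called as lower (-0.48 each, adjusted p = 0.0102 with ENV and 0.0207 with LPS).

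Rel, which encodes c-Rel, a subunit best known from lymphoid and myeloid cells, had 3.56 to 5.82 CPM in ENV astrocytes and 3.11 to 4.69 CPM in buffer astrocytes, groups that overlapped. It passed the test in none of the 4 comparisons. It had 12, 12.9 and 8.22 CPM in ENV microglia, against 20.8, 18.8 and 7.94 CPM in buffer microglia (log2 change -0.52 ± 0.37, adjusted p = 0.318). In LPS microglia it had 12.4, 11.1 and 22.1 CPM, against 20, 21.9 and 15.1 CPM in H2O microglia (-0.32 ± 0.30, adjusted p = 0.453). Buffer replicate 3 was the lowest of the 6 ENV and buffer libraries, and LPS replicate 3 the highest of the 6 LPS and H2O libraries. Without buffer replicate 3 the ENV change was -0.84 (adjusted p = 0.022), without LPS replicate 3 the LPS change was -0.69 (adjusted p = 0.0458), and with replicates 1 and 2 of LPS and H2O alone it was -0.84 (adjusted p = 0.0114). In astrocytes Rel changed by 0.49 ± 0.23 with ENV (adjusted p = 0.173) and 0.55 ± 0.22 with LPS (adjusted p = 0.207), higher in 4 of 4 pairs each time.

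Relb, the activating partner of p52 in the non-canonical branch, rose in astrocytes and did not pass the test in microglia. It had 81.3, 50.5, 93.9 and 109 CPM in ENV astrocytes, against 18, 17.3, 22.5 and 35.7 CPM in buffer astrocytes, and 61.9, 56.6, 103 and 108 CPM in LPS astrocytes, against 13.7, 12, 23.3 and 31.3 CPM in H2O astrocytes. Neither pair of groups overlapped. The log2 change was 1.84 ± 0.30 with ENV (adjusted p = 0.00562) and 2.04 ± 0.36 with LPS (adjusted p = 0.0205). Leaving out LPS replicate 3 or H2O replicate 1, 2 or 3 took the LPS call past the threshold (adjusted p up to 0.0697). In microglia Relb had 76.2, 64.6 and 62.8 CPM with ENV, against 63.5, 49.8 and 61.2 CPM with buffer (0.22 ± 0.14, adjusted p = 0.261). With LPS it had 73, 47.1 and 45.3 CPM, against 47.5, 63.3 and 34.1 CPM with H2O (0.19 ± 0.29, adjusted p = 0.638), groups that overlapped. The sign of the LPS value in microglia turned with library totals (-0.12) and without LPS replicate 1 (-0.07) or H2O replicate 3 (-0.01).

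The precursor genes rose under both stimuli in both cell types, apart from Nfkb1 in LPS microglia. Nfkb2, which encodes p100, both an IkB-like inhibitor and the source of p52, had 242, 229 and 204 CPM in ENV microglia, against 116, 94.2 and 89.5 CPM in buffer microglia, and 262, 214 and 265 CPM in LPS microglia, against 116, 138 and 69.1 CPM in H2O microglia. In astrocytes it had 230.5, 124, 254 and 304 CPM with ENV, against 45.6, 43.2, 48.5 and 67.7 CPM with buffer, and 186, 167, 257 and 298 CPM with LPS, against 38.7, 35.4, 48.4 and 64 CPM with H2O. No treated group overlapped its vehicle. The log2 changes were 1.17 ± 0.14 in ENV microglia (adjusted p = 0.00137), 1.20 ± 0.27 in LPS microglia (adjusted p = 0.0214), 2.15 ± 0.28 in ENV astrocytes (adjusted p = 0.00214) and 2.28 ± 0.26 in LPS astrocytes (adjusted p = 0.00621). The call in LPS microglia was lost without LPS replicate 1 (adjusted p = 0.0648), LPS replicate 2 (0.0596) or H2O replicate 1 (0.0769).

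Nfkb1, which encodes p105, likewise inhibitor and precursor, had 283, 242 and 229 CPM in ENV microglia, against 195, 175 and 150.3 CPM in buffer microglia, and 269, 253 and 374 CPM in LPS microglia, against 182, 226 and 143 CPM in H2O microglia. In astrocytes it had 396, 244, 364 and 384 CPM with ENV, against 116, 109, 101 and 156 CPM with buffer, and 260.2, 215, 352 and 376 CPM with LPS, against 101, 95.1, 108 and 145 CPM with H2O. Treated and vehicle libraries were apart in all 4 comparisons. The log2 change was 0.53 ± 0.14 in ENV microglia (adjusted p = 0.0291), 0.70 ± 0.24 in LPS microglia (adjusted p = 0.067), 1.53 ± 0.19 in ENV astrocytes (adjusted p = 0.00195) and 1.42 ± 0.22 in LPS astrocytes (adjusted p = 0.0116). In ENV microglia the call was lost without ENV replicate 1 (adjusted p = 0.0975), 2 (0.0708) or 3 (0.0516) or buffer replicate 2 (0.0804), in a joint fit of the 4 microglial groups (0.0914) and with library totals (0.33, adjusted p = 0.102). In LPS microglia it passed with DESeq2 (0.71, adjusted p = 0.0197) and in the joint fit (0.68, adjusted p = 0.0282). In LPS astrocytes only leaving out H2O replicate 3 lost it, among the 8 libraries (adjusted p = 0.0511).

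**Figure D2:**
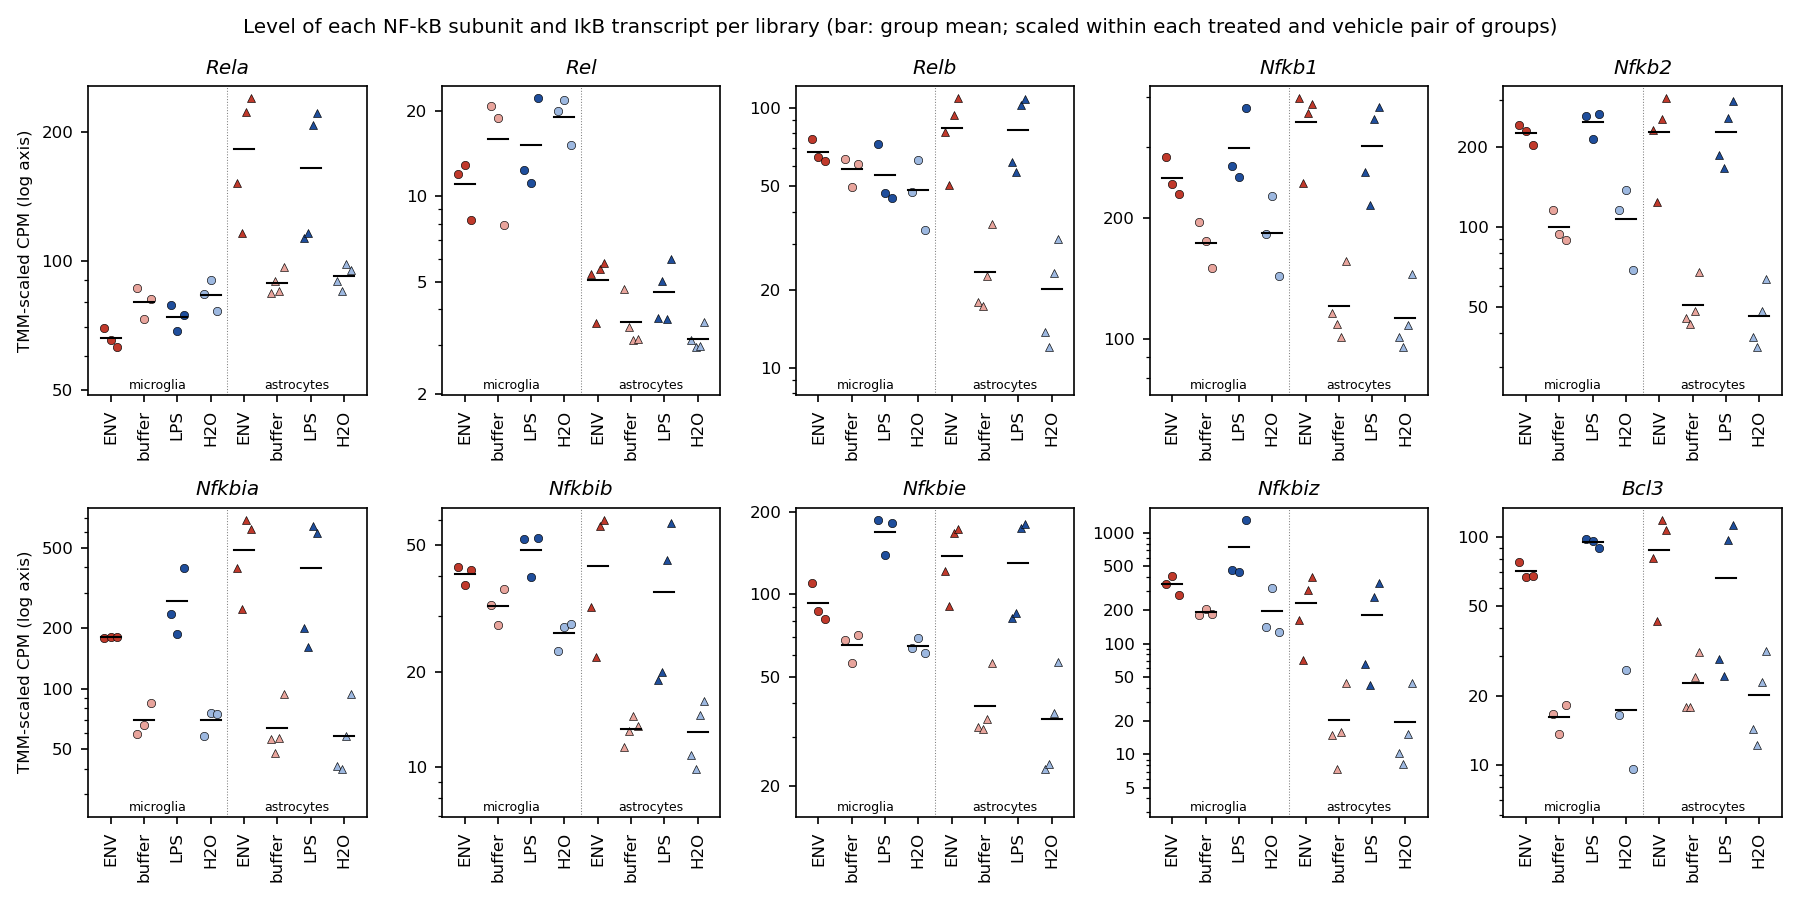
CPM of each member in every library (points, log axis, 1 panel per gene) with group means (bars), TMM scale of each treated group and its vehicle, which compares treated with vehicle libraries of 1 cell type. In astrocytes Nfkbia, Nfkb1, Nfkb2 and Relb of treated libraries lay above all their vehicle libraries, and Rel overlapped in ENV astrocytes.

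All 3 classical inhibitors rose in ENV astrocytes, and Nfkbia rose in all 4 comparisons. Nfkbia, the inhibitor that is degraded and resynthesised within each round of activation, had 179, 180.4 and 181 CPM in ENV microglia, against 59.4, 66.3 and 84.9 CPM in buffer microglia. In LPS microglia it had 235, 187 and 399 CPM, against 58.1, 76 and 74.5 CPM in H2O microglia. The ENV libraries were nearly equal to each other, while LPS replicate 3 stood above the other two. In astrocytes it had 395, 249, 688 and 620.3 CPM with ENV, against 56.4, 47.6, 56.9 and 93.9 CPM with buffer, and 199, 160.2, 641 and 590.0 CPM with LPS, against 41.2, 39.9, 58.4 and 94.1 CPM with H2O. Every treated library was above every vehicle library, and replicates 3 and 4 were above replicates 1 and 2 in both treated astrocyte groups. The log2 change was 1.36 ± 0.15 in ENV microglia (adjusted p = 0.00105), 1.98 ± 0.31 in LPS microglia (adjusted p = 0.00776), 2.94 ± 0.36 in ENV astrocytes (adjusted p = 0.00188) and 2.77 ± 0.54 in LPS astrocytes (adjusted p = 0.0266). The LPS call in astrocytes was lost without LPS replicate 3 or 4 or H2O replicate 1, 2 or 3 (adjusted p up to 0.0946).

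Nfkbie, whose product IkB-epsilon binds mainly Rel and Rela dimers, had 187, 139 and 182 CPM in LPS microglia, against 63.9, 69.3 and 61 CPM in H2O microglia, a log2 change of 1.39 ± 0.15 (adjusted p = 0.0029) that stayed called whichever of the 6 libraries was left out. With ENV it had 109.7, 86.6 and 81.4 CPM in microglia, against 68.1, 56.2 and 70.8 CPM with buffer (0.51 ± 0.16, adjusted p = 0.0452). These groups were also apart, but that call was lost without any 1 of ENV replicates 1 to 3 or buffer replicates 1 and 2 (adjusted p up to 0.133) and with library totals (0.31, adjusted p = 0.105). In astrocytes Nfkbie had 122, 90.3, 168 and 173 CPM with ENV, against 32.6, 32.1, 34.9 and 56.2 CPM with buffer (1.83 ± 0.26, adjusted p = 0.00342). With LPS it had 81.7, 85.5, 175 and 180.1 CPM, against 23, 24, 36.9 and 56.4 CPM with H2O (1.90 ± 0.39, adjusted p = 0.032). Neither astrocyte pair overlapped, and the LPS call was lost without LPS replicate 3 or 4 or H2O replicate 1, 2 or 3 (adjusted p up to 0.104).

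Nfkbib, which encodes the more slowly degraded IkB-beta, had 52.5, 39.8 and 52.6 CPM in LPS microglia, against 23.3, 27.7 and 28.2 CPM in H2O microglia (log2 change 0.87 ± 0.16, adjusted p = 0.0117; 0.79 and 0.0544 without H2O replicate 1). In ENV microglia it had 42.6, 37.4 and 41.7 CPM, against 32.4, 28.1 and 36.4 CPM in buffer microglia (0.33 ± 0.13, adjusted p = 0.0995), and without buffer replicate 3 it passed (0.42, adjusted p = 0.023). The groups were apart in both sets. In astrocytes Nfkbib had 31.9, 22.2, 57.7 and 60.1 CPM with ENV, against 11.6, 13, 14.5 and 13.5 CPM with buffer (1.71 ± 0.31, adjusted p = 0.00832). With LPS it had 18.8, 20, 45 and 58.8 CPM, against 10.9, 9.88, 14.6 and 16.2 CPM with H2O (1.47 ± 0.40, adjusted p = 0.0758). With the replicate block the LPS change was 1.33 (adjusted p = 0.0114), and it was 0.90 within replicates 1 and 2 and 1.74 within replicates 3 and 4. Nfkbib overlaps the gene LOC103689966, which the astrocyte tables list and the microglial tables do not, and no source at hand states the strand of counting, so reads of these 2 genes cannot be told apart.

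Both nuclear IkB genes rose in microglia, and Bcl3 had the largest log2 change of the 10 members there with either stimulus. Bcl3, a co-regulator of p50 and p52 dimers, had 78.1, 66.6 and 67.4 CPM in ENV microglia, against 16.7, 13.7 and 18.3 CPM in buffer microglia, and 98.1, 96.4 and 89.9 CPM in LPS microglia, against 16.5, 26.2 and 9.59 CPM in H2O microglia. The treated microglial libraries were within a narrow range and far above their vehicles. The log2 change was 2.12 ± 0.15 with ENV (adjusted p = 0.000247) and 2.44 ± 0.36 with LPS (adjusted p = 0.00659), and both calls held whichever library was left out. In astrocytes Bcl3 had 81.2, 43, 119 and 108 CPM with ENV, against 17.9, 18, 24.3 and 31.3 CPM with buffer (1.94 ± 0.33, adjusted p = 0.00642). With LPS it had 29.2, 24.5, 97.5 and 113 CPM, against 14.4, 12.2, 23.1 and 31.6 CPM with H2O (1.70 ± 0.56, adjusted p = 0.132). LPS replicates 1 and 2 lay within the range of the H2O libraries, yet each was above the H2O library of its own number, and with the replicate block the change was 1.50 (adjusted p = 0.0111). It was 1.01 within replicates 1 and 2 and 1.93 within replicates 3 and 4.

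Nfkbiz, whose product is needed for a late group of inflammatory genes such as Lcn2 and Il6 in mouse macrophages, had 347, 413 and 275 CPM in ENV microglia, against 182, 207 and 187 CPM in buffer microglia (log2 change 0.85 ± 0.17, adjusted p = 0.00963). The call held whichever of the 6 libraries was left out and was lost in the joint fit (0.85, adjusted p = 0.211). In LPS microglia it had 462, 449 and 1314 CPM, against 143, 316 and 129 CPM in H2O microglia, so that LPS replicate 3 was far above all other libraries. The change of 1.92 ± 0.57 (adjusted p = 0.0486) was lost whichever of the 6 libraries was left out, when it ran from 1.22, without LPS replicate 3, to 2.45, without H2O replicate 2 (adjusted p from 0.0603 to 0.161). Replicates 1 and 2 alone gave 0.99 (adjusted p = 0.104), the replicate block 1.84 (adjusted p = 0.0772) , library totals 1.62 (adjusted p = 0.065) and no filter on low counts 1.91 (adjusted p = 0.0609). In astrocytes Nfkbiz had the widest spread of the members relative to its mean, with 165, 70.9, 306 and 401 CPM with ENV, against 14.9, 7.4, 15.9 and 44.5 CPM with buffer (3.50 ± 0.70, adjusted p = 0.0118). With LPS it had 66.1, 42.8, 264 and 357 CPM, against 10.4, 8.28, 15.2 and 44 CPM with H2O (3.23 ± 0.84, adjusted p = 0.0681; 3.54 and 0.0481 without LPS replicate 2). H2O replicate 4 overlapped LPS replicate 2, and no other library did. With the replicate block the LPS change was 3.05 (adjusted p = 0.00441), and it was 2.54 within replicates 1 and 2 and 3.37 within replicates 3 and 4.

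Counted by overlap, all treated libraries lay above all vehicle libraries for 7 members in ENV microglia (26.2% of genes with a mean of at least 1 CPM did so), 7 in LPS microglia (26.5%), 9 in ENV astrocytes (14.4%) and 8 in LPS astrocytes (8.43%). Only Rela in ENV microglia lay wholly below, as 25.6% of genes did. By pairs of the same number, every member was higher in 4 of 4 pairs with ENV and with LPS in astrocytes. In microglia the exceptions were Rela, lower in 3 of 3 pairs with either stimulus, Rel, higher in 1 of 3 with either, and Relb, higher in 2 of 3 with LPS. In the astrocyte LPS set, 9 members passed in replicates 1 and 2 alone (20.1% of genes called) and 9 in replicates 3 and 4 alone (5.96%). Over all genes, replicates 1 and 2 of this set varied 20.7 (LPS) and 26.8 (H2O) times more than counting error. For replicates 3 and 4 these values were 56.8 and 84.0. The test within replicates 1 and 2 thus rested on a narrow spread, which may be technical. In the ENV set, replicates 3 and 4 alone gave 9 members (6.23%), and replicates 1 and 2 alone gave 2, Nfkbia and Nfkbie (2.48%), with changes from 0.09 for Rel (adjusted p = 0.882) and 0.60 for Rela to 3.37 for Nfkbiz.

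**Figure D3:**
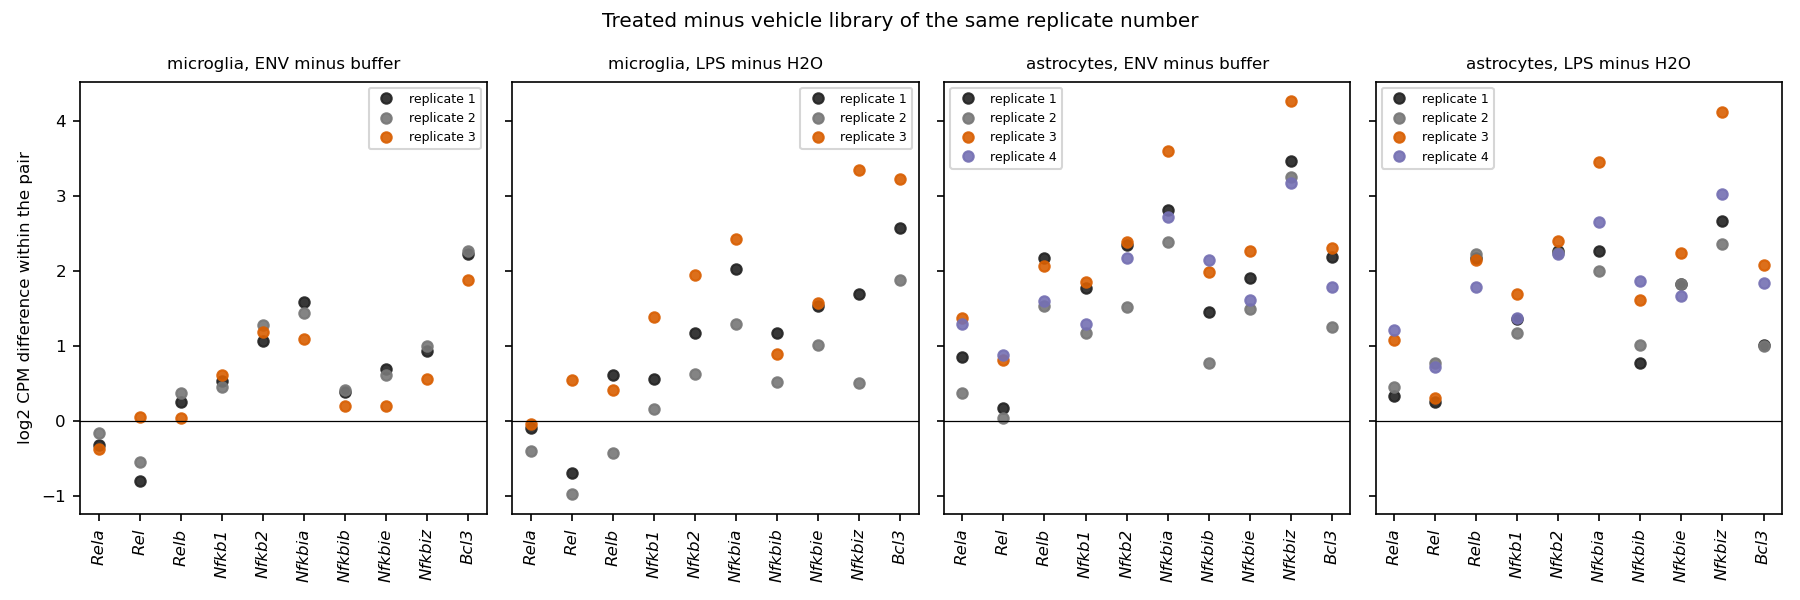
Log2 CPM difference of each member between the treated and the vehicle library of the same replicate number (points), by comparison. In astrocytes every point lay above 0, and in microglia those of Rela lay below 0.

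Other cells' markers moved in the astrocyte cultures as well. With ENV, microglial markers summed to 412, 87.9, 332 and 513 CPM, against 923, 136, 536 and 819.5 CPM with buffer, and 3 of 15 were called lower and none higher. With LPS they summed to 127, 108, 319 and 486 CPM, against 341, 295, 566 and 838 CPM with H2O, and none of 15 was called. Fibroblast and mural markers summed to 1634 to 3394 CPM with ENV, against 2616 to 11549 CPM with buffer, with 1 of 8 tested called lower, and to 1896, 2325, 3625 and 1955 CPM with LPS, against 3414, 6012, 10326 and 2778 CPM with H2O, with none of 7 called. The astrocyte list itself summed to 5815, 6685, 8542 and 10019 CPM with ENV, against 10056, 11019, 10875 and 15247 CPM with buffer, and 1 of its 11 members was called higher and 4 lower. With LPS it summed to 3523, 3855, 8921 and 10212 CPM, against 7243, 8002, 10775 and 15245 CPM with H2O, and none of 11 was called. The sums of these 3 lists were lower in every treated library than in the vehicle library of the same number, and the part of any of these in the members' changes was not tested.

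The responses to ENV and LPS were compared directly as the difference between the changes. No member was called in either cell type by edgeR, nor was any gene (0% of 13270 genes in microglia and 0% of 15496 in astrocytes). At an unadjusted p under 0.05 there were 937 genes in microglia, Nfkbib and Nfkbie among them, and 76 in astrocytes, with none of the members. The largest separation from 0 was that of Nfkbie in microglia, where the ENV response minus the LPS response was -0.85 ± 0.22 (95% bounds -1.29 and -0.41, adjusted p = 0.575). DESeq2 called this gene alone among the members (-0.91, adjusted p = 0.0262), with 0.509% of genes called. Nfkbib followed at -0.51 ± 0.21 (adjusted p = 0.693), Nfkbia at -0.60 ± 0.37 (0.752) and Nfkbiz at -1.05 ± 0.64 (bounds -2.31 and 0.21, 0.751), and the other 6 lay between -0.28 and 0.07. In astrocytes the differences ran from -0.20 for Relb to 0.29 for Nfkbiz, with adjusted p of 1 for all 10. Their bounds were wide, from -1.81 to 2.39 for Nfkbiz and from -0.46 to 0.85 for Rela. These bounds used the group alone, so variation shared by libraries of the same number was left in them. By number, Nfkbiz changed by 3.46, 3.25, 4.26 and 3.17 with ENV and by 2.66, 2.36, 4.11 and 3.02 with LPS. The ENV value was the higher for each number. For Rela it was the lower in replicate 2 (0.38, against 0.45 with LPS). No fit paired the ENV and LPS sets by number, so the sizes of the responses were not shown to be alike or different. The doses of ENV and LPS are of different substances and were not matched.

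The ENV response of 7 of the 10 members was lower in microglia than in astrocytes, in a direct test of the signed difference. Among them, Rela was nominally lower with ENV in microglia (-0.28, not called) and higher in astrocytes (1.04). The called members were Nfkb1, Rela, Relb, Nfkbia, Nfkbib, Nfkbie and Nfkbiz, while 14.9% of 13378 genes were called and 8.07% were called lower. The median difference was -1.33 over the members and -0.06 over all genes. For Rela, the difference was -1.33 ± 0.28 (adjusted p = 0.00756) and for Relb -1.62 ± 0.38 (adjusted p = 0.0132), and these were the 2 that held whichever of the 14 libraries was left out (adjusted p up to 0.0271 and 0.0393). Nfkb1 differed by -1.003 ± 0.26 (adjusted p = 0.0209) and Nfkbie by -1.33 ± 0.34 (0.0218), and each was lost without 3 of the libraries. The calls of Nfkbia (-1.59 ± 0.45, 0.0311) and Nfkbib (-1.39 ± 0.39, 0.0332) were lost without 9 of them and that of Nfkbiz (-2.68 ± 0.82, 0.0443) without 12. Nfkb2 (-0.99 ± 0.35, adjusted p = 0.0743) passed in 4 of 19 alternatives. Among these were the replicate block (-0.93, 0.0131) and the fits without astrocyte ENV replicate 2 (-1.20, 0.00585) and without astrocyte buffer replicate 4 (-1.15, 0.0431). Rel (-1.01 ± 0.43, 0.137) passed without microglial buffer replicate 3 (-1.33, 0.0179). Bcl3 was the member nearest to 0 (0.16 ± 0.42, 95% bounds -0.65 and 0.98, adjusted p = 0.842), and its sign turned without astrocyte ENV replicate 2 (-0.06) or buffer replicate 4 (-0.02). The number of members called fell to 2 without microglial ENV replicate 3 or astrocyte buffer replicate 2.

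For LPS, 2 members were called, Rela (-1.03 ± 0.31, adjusted p = 0.047) and Relb (-1.87 ± 0.51, 0.0341), both lower in microglia than in astrocytes, with 12.5% of 13284 genes called and 7.14% called lower. Neither call was firm: that of Rela was lost without 12 of the 14 libraries (adjusted p up to 0.114), that of Relb without 9 (up to 0.083), and none of the members was called with RLE size factors (12.6% of genes). Without replicate 3 of the microglial LPS and H2O groups together, 2 members were called (12.1% of genes), which were Rel (-1.44, adjusted p = 0.0151) and Nfkb2 (-1.43, 0.0422), while Rela gave -1.13 (0.0742) and Relb -1.98 (0.0527). Nfkb2 differed by -1.10 (adjusted p = 0.0886) and passed in 4 of 20 alternatives, with adjusted p down to 0.0307. Among these were the block (-1.06, 0.0389) and the fit without microglial H2O replicate 3 (-1.34, 0.0421). Rel (-0.88, 0.165) passed without microglial LPS replicate 3 (-1.31, 0.0207). Bcl3 alone had a difference above 0 (0.72 ± 0.76, bounds -0.77 and 2.21, adjusted p = 0.597). The median difference was -0.84 over the members and -0.12 over all genes, and the scaling moved the split of calls: 42.7% of called genes were higher in microglia with TMM, 54.6% with RLE and 19.8% with library totals. For ENV these shares were 46.0%, 54.1% and 25.9%.

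**Figure D4:**
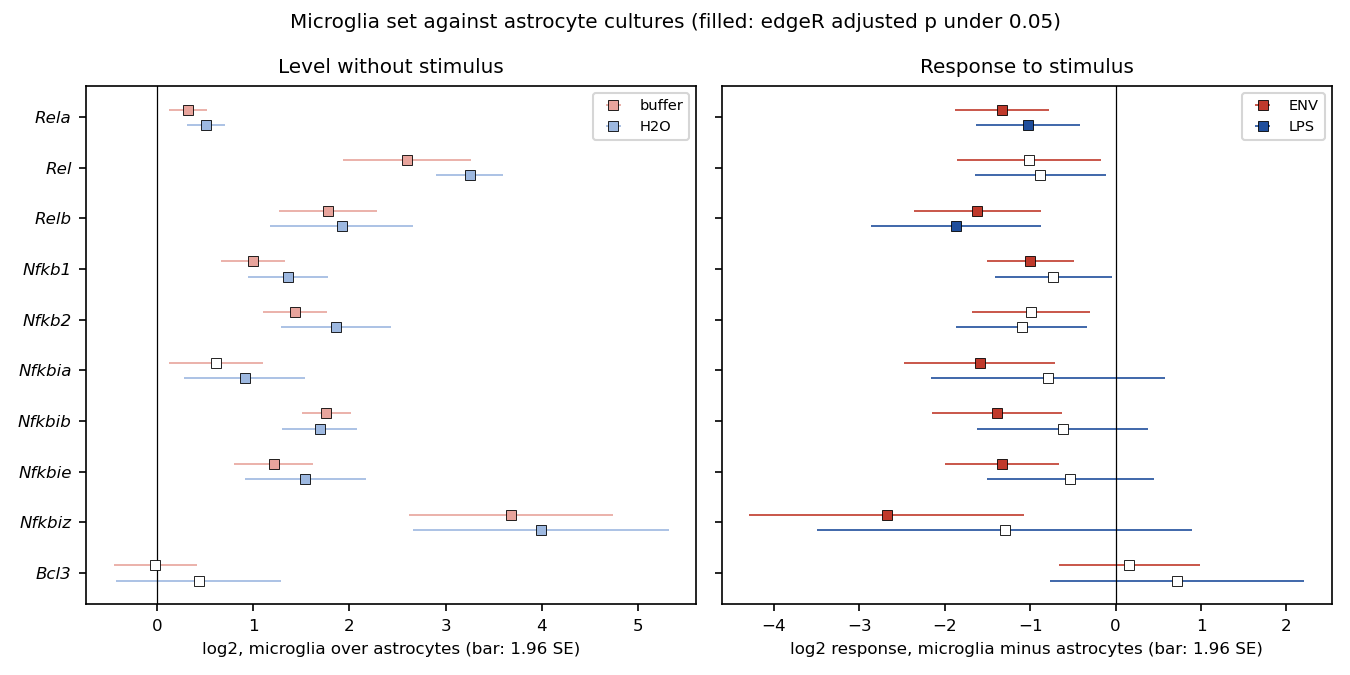
Difference between cell types for each member, log2 scale, with bars to the 95% bounds of the normal approximation and filled points past the edgeR threshold. The left panel gives the vehicle level in microglia relative to astrocytes with buffer and with H2O, and the right panel the response to ENV and to LPS in microglia minus that in astrocytes. Rel and Nfkbiz had the highest vehicle levels relative to astrocytes, at 2.60 and 3.68 with buffer, and the response differences of all members but Bcl3 were below 0.

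Without stimulus, most members were more abundant in microglia. With buffer 8 of 10 were called higher in microglia than in astrocytes and with H2O 9 of 10, in comparisons where 70.0% and 70.9% of genes were called (33.6% and 33.2% higher). On the scale common to the libraries compared, Rel averaged 21.2 ± 9.08 CPM in buffer microglia (SD, n = 3) and 3.51 ± 0.756 CPM in buffer astrocytes (n = 4), a log2 difference of 2.60 ± 0.34 (SE, adjusted p = 0.000234). With H2O it averaged 27.9 ± 5.13 CPM in microglia and 2.94 ± 0.305 CPM in astrocytes (3.25 ± 0.18, adjusted p = 9.75e-06). Nfkbiz averaged 258 ± 20.1 CPM in buffer microglia and 20.1 ± 15.7 CPM in buffer astrocytes (3.68 ± 0.54, adjusted p = 0.000487), and 288 ± 154 CPM in H2O microglia and 18.2 ± 15.6 CPM in H2O astrocytes (3.99 ± 0.68, adjusted p = 0.00161). These 2 genes had the largest differences under either vehicle. Relb (1.78 with buffer, 1.92 with H2O), Nfkbib (1.76, 1.69), Nfkb2 (1.43, 1.86), Nfkbie (1.21, 1.54) and Nfkb1 (1.00, 1.36) followed, with adjusted p of at most 0.00398. These 7 genes stayed called whichever library was left out and with library totals. For Nfkbib, the overlapping gene named above is listed in the astrocyte tables alone, and its part in this level difference was not tested.

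For the remaining 3 genes the level difference was small or turned on the scale. Rela averaged 108 ± 8.13 CPM in buffer microglia and 86.4 ± 4.91 CPM in buffer astrocytes (0.32 ± 0.10, adjusted p = 0.0188), and the difference was 0.51 ± 0.10 with H2O (adjusted p = 0.00273). With library totals these became -0.03 (adjusted p = 0.842) and 0.02 (0.858), and the buffer call was lost without microglial buffer replicate 1 or astrocyte buffer replicate 1, 2 or 3 (adjusted p up to 0.0833). Nfkbia differed by 0.61 ± 0.25 with buffer (adjusted p = 0.0544; 0.83 and 0.00362 without astrocyte buffer replicate 4) and 0.91 ± 0.32 with H2O (0.0354; 0.41 and 0.298 with library totals). The H2O call of Nfkbia was lost without microglial H2O replicate 2 or 3 or astrocyte H2O replicate 1, 2 or 3 (adjusted p up to 0.0931). Bcl3 averaged 21.9 ± 3.21 CPM in buffer microglia and 22.2 ± 6.05 CPM in buffer astrocytes (-0.02 ± 0.22, bounds -0.46 and 0.42), and 25.6 ± 12.3 CPM in H2O microglia and 19 ± 8.34 CPM in H2O astrocytes (0.43 ± 0.44; -0.08 with library totals). Library totals moved the median of all genes to -0.35 with buffer and -0.60 with H2O, against -0.01 and -0.11 with TMM.

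The microglial and astrocyte tables differ in their gene lists, sharing 15344 symbols with the astrocyte ENV set and 15246 with the LPS set, and a level set across them can carry a difference in gene models. The widely expressed ubiquitin ligase gene Rbx1 differed by 10.27 and the kinase adaptor gene Tab1 by 13.44 on the log2 scale between buffer microglia and buffer astrocytes. The members' level differences were all below 4 on that scale, and the part of the gene models in them was not tested. The microglial marker sum of 136 to 923 CPM in buffer astrocyte cultures, given above, likewise stands beside the astrocyte levels of Rel and Nfkbiz, and its part in them was not tested. Between the vehicles, buffer against H2O, none of the 10 members was called in microglia (-0.43 to 0.11) or in astrocytes (-0.03 to 0.24), where 0% of genes were called by edgeR in each. At an unadjusted p under 0.05 there were 1946 genes in microglia and 125 in astrocytes, and DESeq2 called 679 genes in microglia, none of them a member.

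On a single TMM scale over all 28 libraries, the order of the 8 groups differed from member to member. Rel separated the cell types: its mean was 27.8 CPM in H2O microglia, 21.8 in LPS microglia, 20.4 in buffer microglia and 13.9 in ENV microglia, and 4.62 CPM in ENV astrocytes, 4.15 in LPS astrocytes, 3.35 in buffer astrocytes and 2.86 in H2O astrocytes. The 4 microglial groups overlapped each other in order, as did the 4 astrocyte groups, and the gap lay between the cell types. Relb, Nfkb1 and Nfkb2 instead placed the buffer and H2O astrocytes apart at the bottom. Relb averaged 85.4 CPM in ENV microglia, 78.5 in LPS microglia, 76.2 in ENV astrocytes, 75.1 in buffer microglia, 74.2 in LPS astrocytes and 70.8 in H2O microglia, neighbours that overlapped, and 21.7 CPM in buffer astrocytes and 18.3 in H2O astrocytes. For Nfkb1 the order was 428 CPM in LPS microglia, 316 in ENV astrocytes and ENV microglia, 271 in LPS astrocytes, 269 in H2O microglia, 224 in buffer microglia, then 112 in buffer astrocytes and 102 in H2O astrocytes. Nfkb2 ran from 353 CPM in LPS microglia over 283 in ENV microglia, 208 in ENV astrocytes, 204 in LPS astrocytes, 158 in H2O microglia and 129 in buffer microglia to 47.6 in buffer astrocytes and 42.4 in H2O astrocytes. For both precursors, neighbours in the order overlapped except at the step to the vehicle astrocytes.

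Nfkbiz, Bcl3, Nfkbie and Nfkbib were highest in LPS microglia, apart from the next group. Nfkbiz averaged 1072 CPM in LPS microglia, 434 in ENV microglia, 287 in H2O microglia, 248 in buffer microglia, 215 in ENV astrocytes, 165 in LPS astrocytes, 19.2 in buffer astrocytes and 17.8 in H2O astrocytes, and from ENV microglia down each group overlapped the next. Bcl3 averaged 135 CPM in LPS microglia, 88.9 in ENV microglia, 80.4 in ENV astrocytes and 59.6 in LPS astrocytes, and the 4 vehicle groups lay between 18.5 and 25.6 CPM, with overlap between neighbours below LPS microglia. Nfkbie averaged 242 CPM in LPS microglia, then 126 in ENV astrocytes, 117 in LPS astrocytes and 116 in ENV microglia, which overlapped, then 94.9 in H2O microglia and 84 in buffer microglia, and apart from these 36.2 in buffer astrocytes and 32 in H2O astrocytes. Nfkbib averaged 69 CPM in LPS microglia, 51.1 in ENV microglia, 41.8 in buffer microglia, 39.2 in ENV astrocytes, 38.7 in H2O microglia and 32.1 in LPS astrocytes, and 12.2 in buffer astrocytes and 11.7 in H2O astrocytes. The order of Nfkbia followed the treatment: 446 CPM in ENV astrocytes, 394 in LPS microglia, 358 in LPS astrocytes and 227 in ENV microglia lay above 102 in H2O microglia, 90.9 in buffer microglia, 59.1 in buffer astrocytes and 53.2 in H2O astrocytes. Rela had the narrowest range of the 10 members as a ratio of the highest to the lowest group mean, with 166 CPM in ENV astrocytes, 148 in LPS astrocytes, 122 in H2O microglia, 106 in LPS microglia, 104 in buffer microglia, 83.5 in H2O astrocytes, 83 in ENV microglia and 82.6 in buffer astrocytes. Its neighbours were apart at the steps from H2O to LPS microglia and from buffer microglia to H2O astrocytes, and overlapped elsewhere.

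Genes that act on the members were read from lists of the same pathway. Their counts stand beside the shares of all genes called higher given above, 16.2% in ENV microglia, 16.0% in LPS microglia, 9.52% in ENV astrocytes and 2.64% in LPS astrocytes, and with lists of 5 to 10 genes nothing is read from a count alone. Of the IKK complex and its activating kinases (10 genes), ENV changed 3 of 10 tested in microglia (2 higher, 1 lower), LPS likewise 3 of 10, shares near the 30.9% and 29.8% of all genes called there, ENV 4 of 9 in astrocytes (all higher) and LPS 1 of 9 (higher). Map3k8, the kinase Tpl2 that is held by p105, rose by 1.88 ± 0.12 in ENV microglia (adjusted p = 0.000182), 2.12 ± 0.40 in LPS microglia (0.0133, and 0.0626 without H2O replicate 1) and 3.02 ± 0.60 in ENV astrocytes (0.0122). Tbk1, a kinase related to IKK, rose by 0.81 in ENV microglia, 0.97 in LPS microglia and 0.45 in each astrocyte comparison (adjusted p at most 0.0388), and the LPS astrocyte call was lost without 7 of 8 libraries. Ikbke, which encodes the related kinase IKK-epsilon, rose by 1.47 in ENV astrocytes (adjusted p = 0.0334), a call lost without 6 of 8 libraries. Ikbkb, a kinase gene of the IKK complex, was called higher in ENV astrocytes as well. Its change ran from 0.63 to 0.90 with each library left out in turn, and the call was lost without 4 of 8 (adjusted p up to 0.0674). Tab1, an adaptor of the kinase TAK1, was the member of the list that fell, by 0.58 in ENV microglia (adjusted p = 0.00964) and by 0.60 in LPS microglia (0.0195, lost without 4 of 6 libraries).

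Of the non-canonical branch (5 genes), 1 was called higher in ENV microglia, 2 in LPS microglia, 4 in ENV astrocytes and 2 in LPS astrocytes, where 1 was also called lower. In microglia 1 of 5 is near the share of all genes called higher. Birc3, which encodes cIAP2, a ubiquitin ligase of the complex that degrades the kinase NIK, rose by 3.84 ± 0.27 in ENV microglia (adjusted p = 0.000264), 4.58 ± 0.55 in LPS microglia (0.00398), 3.88 ± 0.64 in ENV astrocytes (0.00572) and 3.67 ± 0.74 in LPS astrocytes (0.03, lost without 5 of 8 libraries). Its relative Birc2 rose by 1.92 ± 0.29 in ENV astrocytes (adjusted p = 0.00413), and the ENV response of Birc2 was lower in microglia than in astrocytes by a tested difference of -2.32 ± 0.41 (adjusted p = 0.00299). Traf2, an adaptor of the same complex, rose by 0.99 in both astrocyte comparisons (adjusted p = 0.00159 with ENV, 0.00773 with LPS) and by 0.92 in LPS microglia (0.00763). Map3k14, which encodes NIK, fell by 0.47 in LPS astrocytes (adjusted p = 0.0305), a call lost whichever of the 8 libraries was left out.

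Among the 5 genes that ubiquitinate IkB, 1 was called higher in ENV microglia (Btrc, 0.57, adjusted p = 0.0224, lost without 4 of 6 libraries), 2 in LPS microglia (Fbxw11, 0.84, 0.00838, and Rbx1, 0.66, 0.0194, lost without 3 of 6 libraries and with library totals, where it was 0.35 with an adjusted p of 0.136) and none of 4 in either astrocyte comparison. In ENV microglia that 1 of 5 is near the 16.2% of all genes called higher. Among 6 other IkB-like proteins and Rela modifiers, 1 of 5 was higher in ENV microglia, 2 higher and 1 lower of 5 in LPS microglia, 1 higher and 1 lower of 6 in ENV astrocytes, and none of 6 in LPS astrocytes. Nfkbid, which encodes the nuclear IkB-NS, rose by 1.31 in ENV astrocytes (adjusted p = 0.0304, lost without 6 of 8 libraries). Pdlim2, which targets nuclear p65 for degradation in mouse cells, fell by 1.33 there (0.00562). In LPS microglia Nkiras1 fell by 0.95 (adjusted p = 0.0273, lost without 5 of 6 libraries). The Nfkbil1 change of 0.81 there (0.0175) was lost without 3 of 6 libraries, and Nkiras2, an IkB-binding Ras-like protein gene, rose by 0.63 (0.014) there and by 0.41 in ENV microglia (0.0217), calls lost without 2 and 5 of 6 libraries. Over all alternatives, left-out libraries among them, Nkiras2 was lost in 3 of 13 with LPS and 6 of 12 with ENV. Nfkbil1 was lost in 4 of 13 and Btrc in 5 of 12. The lowest log2 changes over the alternatives were 0.33, 0.21, 0.51 and 0.36 in this order.

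Of 5 genes that control the decay of Nfkbiz mRNA, 2 were called higher with ENV in either cell type and 1 with LPS in either, and none lower, beside 16.2%, 16.0%, 9.52% and 2.64% of all genes called higher in ENV and LPS microglia and in ENV and LPS astrocytes. Zc3h12a, which encodes the RNase Regnase-1 that degrades Nfkbiz mRNA in mouse cells, rose by 1.09 ± 0.13 in ENV microglia (adjusted p = 0.00122), 2.08 ± 0.39 in LPS microglia (0.0126), 2.94 ± 0.34 in ENV astrocytes (0.0014) and 2.77 ± 0.43 in LPS astrocytes (0.0119). The LPS calls were lost without H2O replicate 1 in microglia (1.99, adjusted p = 0.0617) and without H2O replicate 3 in astrocytes (2.78, adjusted p = 0.0536). The ENV response of Zc3h12a was lower in microglia than in astrocytes by a difference of -1.86 ± 0.41 (adjusted p = 0.00878), in the direction of Nfkbiz. Arid5a, whose product stabilises a set of inflammatory mRNAs against Regnase-1 in mouse cells, rose by 1.49 in ENV microglia (adjusted p = 0.00162) and by 1.07 in ENV astrocytes (0.00788).

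The genes most like each member were found by the Pearson correlation of log2 CPM, taken relative to the mean of the own vehicle group, over the 28 libraries and among 12069 genes. The points share stimuli, library and vehicle means, and the values are given as a description. The median over all genes lay between -0.040 and 0.055 for the 10 members. Zc3h12a was among the 3 closest genes of 5 members, Nfkbia (0.983), Nfkb1 (0.973), Nfkbie (0.971), Nfkbiz (0.966) and Nfkb2 (0.965). Members were also close to each other: Nfkb1 and Nfkb2 at 0.974, Nfkbia and Nfkbie at 0.970, Nfkbia and Nfkbiz at 0.962, and Nfkbie and Nfkbiz at 0.958. The closest gene to Bcl3 was Birc3 (0.973), to Relb Neurl3 (0.972), to Rela Slc26a4 (0.956) followed by Birc2 (0.954), and to Nfkbib Ginm1 (0.955). Rel stood apart, with Stx6 (0.859) as its closest gene, and at 0.03 with Bcl3, while Rela was at 0.40 with Bcl3.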

How the data were processed

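The deposited files hold raw counts per gene symbol, 1 table per library, which the authors did not normalize. The submitters' processing notes name StringTie 1.3.3b, HISAT2 and mRatBN7.2, but no settings, annotation release or strand are given in the sources used here. Groups and replicate numbers came from the sample labels. Counts were tested with the edgeR quasi-likelihood F test, 2-sided (edgeR 4.0.16, limma 3.58.1, R 4.3.3; TMM, filterByExpr, robust fit), with Benjamini-Hochberg adjustment over all genes and a threshold of 0.05. Differences between responses were contrasts of 4 groups. Standard errors are the coefficient divided by the square root of F, and 95% bounds are normal. Levels are TMM-scaled CPM within each treated and vehicle pair unless another scale is named. Treated and vehicle libraries of the same number deviated together (correlations of 0.26 to 0.64). Numbers were therefore taken to pair them in the replicate block and in the pair differences. The main tests, and the standard errors and bounds given, used the group alone. In the astrocyte LPS set, replicates 1 and 2 were hardly told apart. Replicate 2 correlated at 0.53 with its own number and at 0.53 with another, and replicate 1 at 0.61 and 0.53. Astrocyte buffer and H2O libraries of the same number also deviated together (0.29 to 0.80). Vehicles of different cell types did not all pair (0.00 to 0.19). Alternatives were DESeq2 1.42.0, RLE factors, no filter, a replicate block, joint fits and leaving out libraries. Library totals, and leaving out microglial LPS and H2O replicate 3 together in the response differences, were added after seeing the data. Named genes were the 10 members, the 3 closest genes of each member, and up to 3 called genes per pathway list and comparison with the largest change. All 4 called genes of the IKK list in ENV astrocytes were named. Members and lists were chosen with earlier results of these data known.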

Additional observations from a re-analysis of the deposited data

Results flagged for a closer look

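In buffer astrocytes, Nfkbie of replicate 4 (56.2 CPM) stood far above the other 3 libraries, with a gap to the nearest of 0.882 of the group's range. It was 1 such case among 40 groups of 4 libraries, and chance gives about 1 in 20. Other results are listed because the tested difference between cell types passed the threshold. For the ENV response in microglia minus that in astrocytes these were Nfkb1 (-1.003), Rela (-1.33), Relb (-1.62), Nfkbia (-1.59), Nfkbib (-1.39), Nfkbie (-1.33) and Nfkbiz (-2.68), on the log2 scale. For the LPS response these were Rela (-1.03) and Relb (-1.87).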

How the results depend on the processing

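In ENV astrocytes 4348 genes were called with the replicate block, 372 in replicates 1 and 2 alone (2 members) and 950 in replicates 3 and 4 alone. In LPS astrocytes 9 members were called with DESeq2 (2049 genes), the block (2611), the joint fit (1736), replicates 1 and 2 alone (2970) and replicates 3 and 4 alone. For the ENV minus LPS response in microglia, DESeq2 called 1 member and 67 genes, the block 1 gene, and leaving out LPS and H2O replicate 3 together 8. For ENV between cell types the block called 3314 genes. For LPS between cell types DESeq2 called 2720 genes, the block 3029, and RLE factors 0 members. Between the microglial vehicles DESeq2 called 679 genes and the fit without a filter 1. Between buffer microglia and buffer astrocytes, whose numbers do not pair, Nfkbia passed with the block (0.82, adjusted p = 0.0063). The replicate block changed no other call of a member than this and those given in the results. Signs turned for Relb in LPS microglia (-0.12 with library totals), for Rela (-0.03) with library totals in the buffer level and Bcl3 (-0.08) in the H2O level, and for Bcl3 with the block in the buffer level (0.14). The cause was not tested.

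Leaving out 1 library at a time gave, as members and genes called, 4 to 8 and 2466 to 5282 in ENV microglia, 3 to 6 and 1351 to 3986 in LPS microglia, 9 and 1487 to 2869 in ENV astrocytes, and 1 to 6 and 236 to 681 in LPS astrocytes. The ranges were 2 to 8 and 1414 to 2287 for the ENV difference between cell types, 0 to 2 and 1105 to 1820 for the LPS difference, 7 to 9 and 8326 to 9523 for buffer levels, and 8 to 9 and 8183 to 9492 for H2O levels. No member was called for ENV minus LPS or between vehicles, with 0 to 4 genes for ENV minus LPS and 0 to 1650 between vehicles in microglia, and 0 in astrocytes. Values whose sign turned ran from -0.07 to 0.44 for Relb in LPS microglia, from -0.06 to 0.36 for Bcl3 in the ENV difference and from -0.17 to 0.14 for Bcl3 in the buffer level. Over all genes, replicate pairs of a group varied at least 17.4 times more than counting error, and the spread of single members was not set against counting error.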
